A study of Arabidopsis thaliana with 4 samples.

Results

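The 4 genes described are nuclear genes of Arabidopsis thaliana for proteins of the plastid ribosome: AT5G47190 and AT4G17560, both for the large subunit protein L19, AT5G65220 for the large subunit protein L29, and AT1G64510 for the small subunit protein S6. They were taken as listed loci, because their transcripts had been seen to be high in polysomes without stress and lower under dehydration, and they are 4 of 13355 loci that a probe set of the array names. The names of the proteins are general knowledge of the Arabidopsis genome, since the annotation tables used give these loci no gene symbol. Each gene is represented by 1 probe set, with a suffix that by the array's naming marks probes specific to 1 transcript, so the L19 copies were read separately.

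The RNA of 4 groups was hybridized to an Affymetrix ATH1 array each: dehydration polysomal, dehydration non-polysomal, non-stress polysomal and non-stress non-polysomal. Polysomal RNA carries several ribosomes, and non-polysomal RNA is free or carries a single one. Tissue, strain, age and the length of the dehydration are not given in the sources used here. With 1 array in each group no difference could be tested, every value below is a description, and the number of arrays limits the precision.

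Plastids descend from bacteria and translate their own genome on ribosomes of bacterial type. Some of the proteins of these ribosomes are encoded in the plastid and the others in the nucleus, from where they are made on cytosolic ribosomes and imported. The polysome ratio of a nuclear transcript such as those described here therefore concerns cytosolic translation of a part of the plastid's translation machinery. In Escherichia coli, L19 lies where the subunits of the ribosome meet, L29 lies beside the exit of the tunnel for the nascent chain, and S6 binds ribosomal RNA together with S18 in the small subunit.

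The arrays had been scaled to a common mean by the authors, with median signals of 185.6 to 249.6 over 22810 probe sets. Polysomal over non-polysomal signal therefore compares a transcript with the mean of its arrays, and the fraction of its molecules on polysomes is not known from it. Both dehydration arrays were hybridized in 1 batch and both non-stress arrays in another, so that batch and dehydration cannot be told apart. RCA, the Rubisco activase gene of green tissue, had signals of 19238 to 23857, while the probe sets of the root genes EXPA7 and AT4G11290 lay at 18.2 to 189.8, below the brightness required of a measured probe set. In RNA of whole samples, fewer cells of a type and less RNA per cell cannot be told apart.

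AT5G47190 had a signal of 2955 in dehydration polysomal RNA and 1429.9 in dehydration non-polysomal RNA, against 4786 in non-stress polysomal RNA and 1424 in non-stress non-polysomal RNA. Both polysomal arrays were above both non-polysomal arrays, and the non-polysomal signals were nearly level. AT1G64510 had 4628 in dehydration polysomal and 2228 in dehydration non-polysomal RNA, against 8115 in non-stress polysomal and 2693 in non-stress non-polysomal RNA. Here too both polysomal arrays were above both non-polysomal arrays, with polysomal RNA of unstressed plants highest.

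AT4G17560, the other L19 gene, had 3392 in dehydration polysomal and 4538 in dehydration non-polysomal RNA, against 5316 in non-stress polysomal and 3905 in non-stress non-polysomal RNA. Its polysomal array was the brighter one without stress and the dimmer one under dehydration. AT5G65220 had 4413 in dehydration polysomal and 7178 in dehydration non-polysomal RNA, against 6745 in non-stress polysomal and 6165 in non-stress non-polysomal RNA. For this gene the highest signal was in non-polysomal RNA of dehydrated plants, and the lowest was in polysomal RNA of the same plants.

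**Figure D1:**
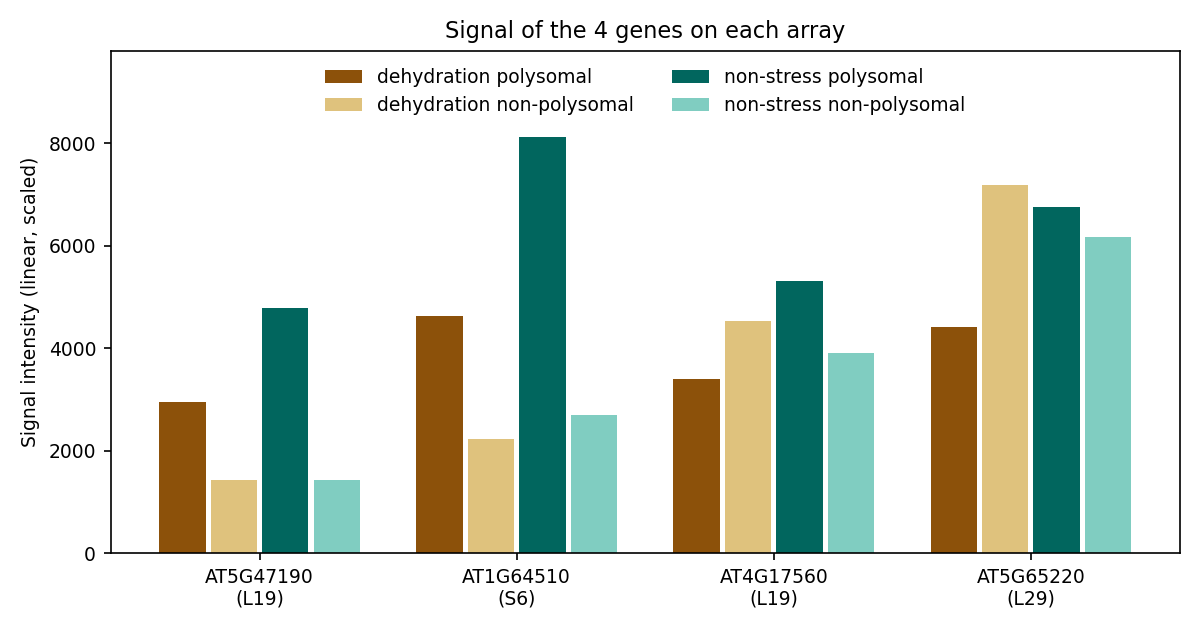
Signal intensity (linear scale, arrays scaled to a common mean) of the 4 genes on the 4 arrays, 1 bar for each array and no error bars because each group has 1 array. For all 4 genes the bar of dehydration polysomal RNA is below that of non-stress polysomal RNA, as with 2955 against 4786 for AT5G47190.

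The polysome ratio, the log2 of polysomal over non-polysomal signal, separated the 4 genes into pairs, which were formed after the values were seen. AT5G47190 had a ratio of 1.05 under dehydration and 1.75 without stress, and AT1G64510 had 1.05 and 1.59. AT4G17560 had -0.42 under dehydration and 0.44 without stress, and AT5G65220 had -0.70 and 0.13. The pairs thus lay apart in both conditions, and only the second pair changed sign between them, for AT5G65220 not under quantile normalization, where both of its ratios were below 0.

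Without stress, 4 of 4 genes had a ratio above 0 and 2 were at least 2-fold higher in polysomal RNA, where 46.8% and 8.56% of the 11373 measured probe sets were, or 18.4% at least 2-fold higher under equal medians and 21.9% under hybridization control scaling. The genes were chosen on this ratio, so nothing is read from these counts. AT5G47190 exceeded 98.9% of the measured probe sets and AT1G64510 98.4%, whereas AT4G17560 exceeded 74.9% and AT5G65220 60.2%. The positive sign of AT5G65220 depended on the scaling, its ratio being -0.13 under quantile normalization. The median of the 4 genes was 1.02, beside a median of -0.06 over all measured probe sets and of 0.34 over the 919 probe sets whose mean log2 signal lay within the range of the 4 genes. Of these 919 bright probe sets 66.5% had a ratio above 0 and 18.9% were at least 2-fold higher.

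Under dehydration, 2 of 4 genes had a ratio above 0 and the same 2, AT5G47190 and AT1G64510, were at least 2-fold higher in polysomal RNA, where 47.9% and 9.06% of the measured probe sets were, or 58.8% and 13.8% of those as bright as the 4 genes. Equal medians gave 15.6% of the measured probe sets at least 2-fold higher. Neither was past 2-fold under quantile normalization, at 0.96 and 0.94. The median of the 4 genes was 0.31, beside -0.04 over all measured probe sets. AT4G17560 exceeded 30.99% of the measured probe sets and AT5G65220 19.6%. A ratio above 0 without stress and below 0 under dehydration, as in AT4G17560 and AT5G65220, was found in 8.91% of all measured probe sets and in 12.2% of those as bright as the 4 genes. The ratio under dehydration is the ratio without stress plus the change between conditions. The genes were chosen on both of these, so nothing is read from the counts under dehydration or from the change of sign.

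The L19 genes encode the same ribosomal protein but differed in polysome ratio. AT5G47190 minus AT4G17560 was 1.47 under dehydration and 1.30 without stress on the log2 scale, which is 2.77-fold and 2.47-fold. Multiplying an array by a constant cannot alter this difference, and quantile normalization gave 1.52 and 1.40. For comparison, the SD of such differences between probe sets of the same locus was 0.529 under dehydration and 0.612 without stress over 48 loci. With 1 array in each group, the spread between plants is unknown. AT1G64510 minus AT5G65220 was 1.76 under dehydration and 1.46 without stress, while AT5G47190 and AT1G64510 differed by -0.01 and 0.16.

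**Figure D2:**
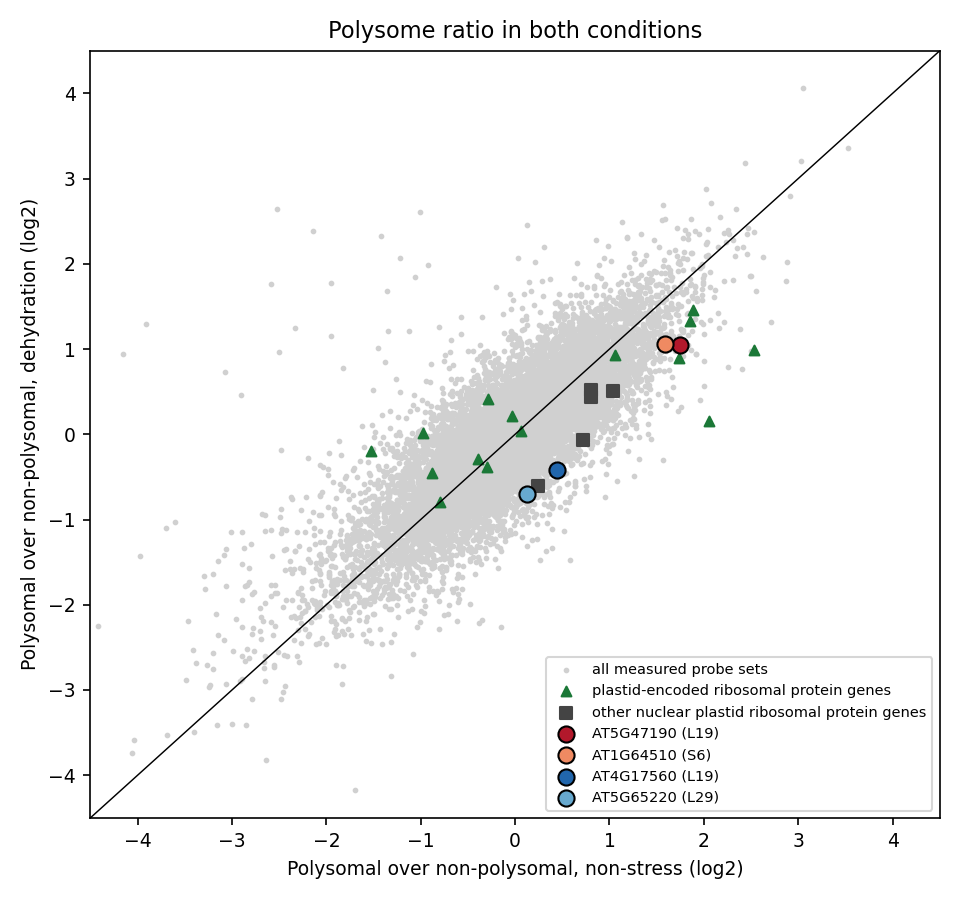
Log2 ratio of polysomal to non-polysomal signal under dehydration (vertical) against that without stress (horizontal) for all measured probe sets (grey), the 4 genes (circles), the other 5 measured nuclear genes of plastid ribosomal proteins (squares) and 15 plastid-encoded ribosomal protein genes (triangles). The line marks equal ratios, and the 4 genes lie below it, with changes of -0.86 to -0.54.

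The change of the ratio, dehydration minus non-stress, was -0.86 for AT4G17560, -0.83 for AT5G65220, -0.70 for AT5G47190 and -0.54 for AT1G64510. All 4 were below 0, as were 48.9% of the measured probe sets, and none was at least 2-fold lower, as 1.62% were. The genes were chosen on this change too, so it is a description. A change at or below that of AT1G64510, the least of the 4, was found in 10.8% of the measured probe sets. Brightness moved with the change: among the 919 probe sets as bright as the 4 genes, 66.9% were below 0 and 18.1% were at or below AT1G64510, and its part in the result was not tested. The median was -0.77 for the 4 genes, -0.19 for the probe sets as bright as they are and 0.01 for all measured probe sets.

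The change in ratio came with a lower signal in polysomal RNA and a smaller difference in non-polysomal RNA. In polysomal RNA, dehydration over non-stress was -0.81 for AT1G64510, the S6 gene, -0.70 for AT5G47190, -0.65 for AT4G17560 and -0.61 for AT5G65220, that is 1.75, 1.62, 1.57 and 1.53-fold lower. All 4 were below 0, beside 50.3% of the measured probe sets and 57.2% of those as bright as the 4 genes, and none was at least 2-fold lower, beside 5.58%. A value at or below that of AT5G65220 was found in 14.6% of the measured probe sets and in 20.9% of those as bright as the 4 genes. The genes were chosen for being lower under dehydration, so nothing is read from these counts or from the span of the 4 values, 0.20. The other 5 measured nuclear genes of plastid ribosomal proteins spanned 0.75.

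In non-polysomal RNA, dehydration over non-stress was 0.22 for AT5G65220, 0.22 for AT4G17560, 0.01 for AT5G47190 and -0.27 for AT1G64510. Here 3 of 4 were above 0, beside 48.5% of the measured probe sets and 57.0% of those as bright as the 4 genes, and none was at least 2-fold higher or lower, beside 4.32% and 4.56%. Equal medians gave 6.80% and 3.05% of the probe sets, and hybridization control scaling 9.62% and 2.15%, with none of the 4 genes past 2-fold in either. The signs of AT5G47190 and AT1G64510 depended on the scaling, AT5G47190 being at -0.06 under quantile normalization and AT1G64510 at 0.03 under hybridization control scaling. The median of the 4 genes was 0.11, beside -0.02 over all measured probe sets, and the 4 values spanned 0.49. Differences between probe sets of the same locus had an SD of 0.474, a measure unlike a span, so the numbers cannot be compared directly. The effects of dehydration in both fractions and the change of the ratio share arrays, so they do not bear on each other independently.

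**Figure D3:**
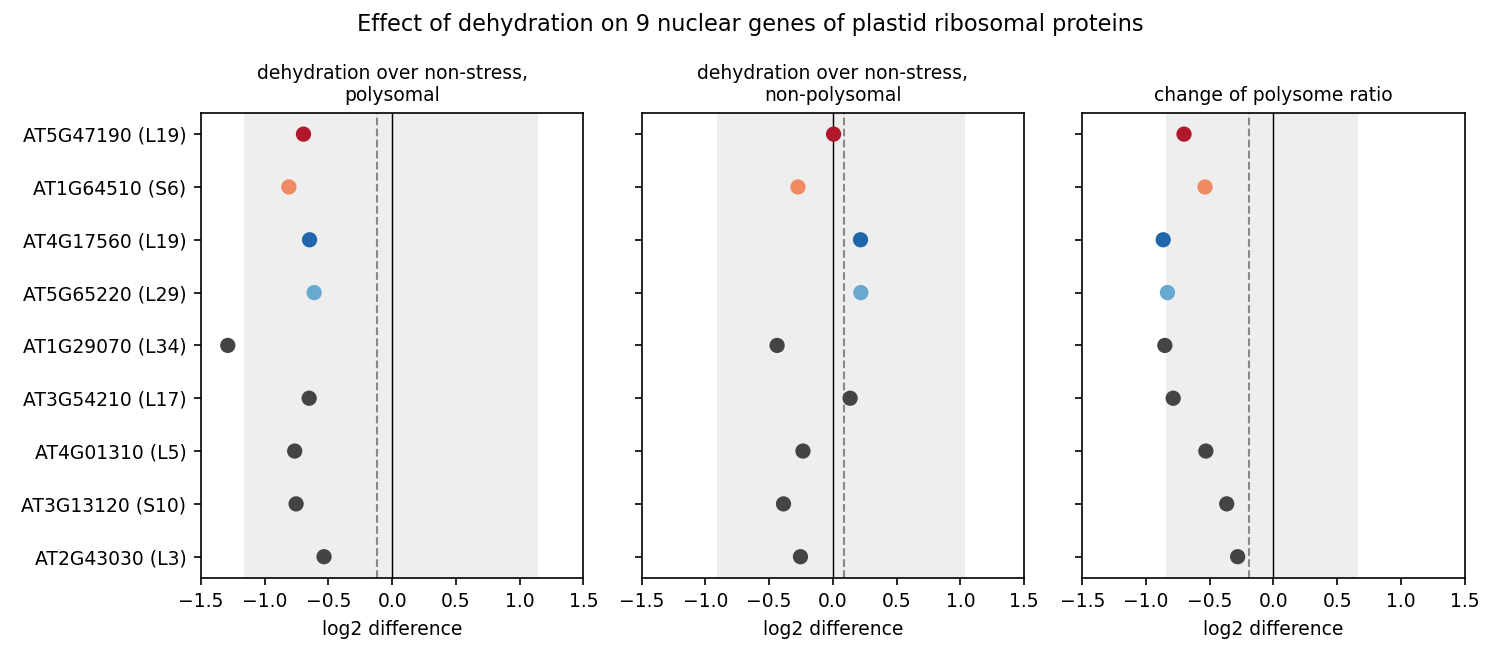
Log2 difference between dehydration and non-stress in polysomal RNA (left), in non-polysomal RNA (middle) and the change of polysome ratio (right) for the 4 genes (coloured) and the other 5 measured nuclear genes of plastid ribosomal proteins (dark grey). The shaded band spans percentiles 5 to 95 and the dashed line the median of the 919 probe sets as bright as the 4 genes. In the left panel the 9 genes lie between -1.29 and -0.53.

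The size of the change in ratio depended on how the arrays were scaled. Scaling on the 18 probe sets of the hybridization controls gave -1.24 for AT4G17560, -1.20 for AT5G65220, -1.07 for AT5G47190 and -0.91 for AT1G64510, so that 3 of 4 were at least 2-fold lower, beside 7.64% of the measured probe sets. This scaling multiplies each array by a constant, and it moved the median of all measured probe sets to -0.36, so that the 4 genes, with a median of -1.14, stood -0.78 from it. Quantile normalization gave -0.73, -0.69, -0.61 and -0.37 in the same order, with a median that stood -0.63 from that of all measured probe sets. In polysomal RNA the effect of dehydration moved little with the scaling, and AT1G64510 ranged from -0.88 to -0.74 and AT5G65220 from -0.68 to -0.55.

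**Figure D4:**
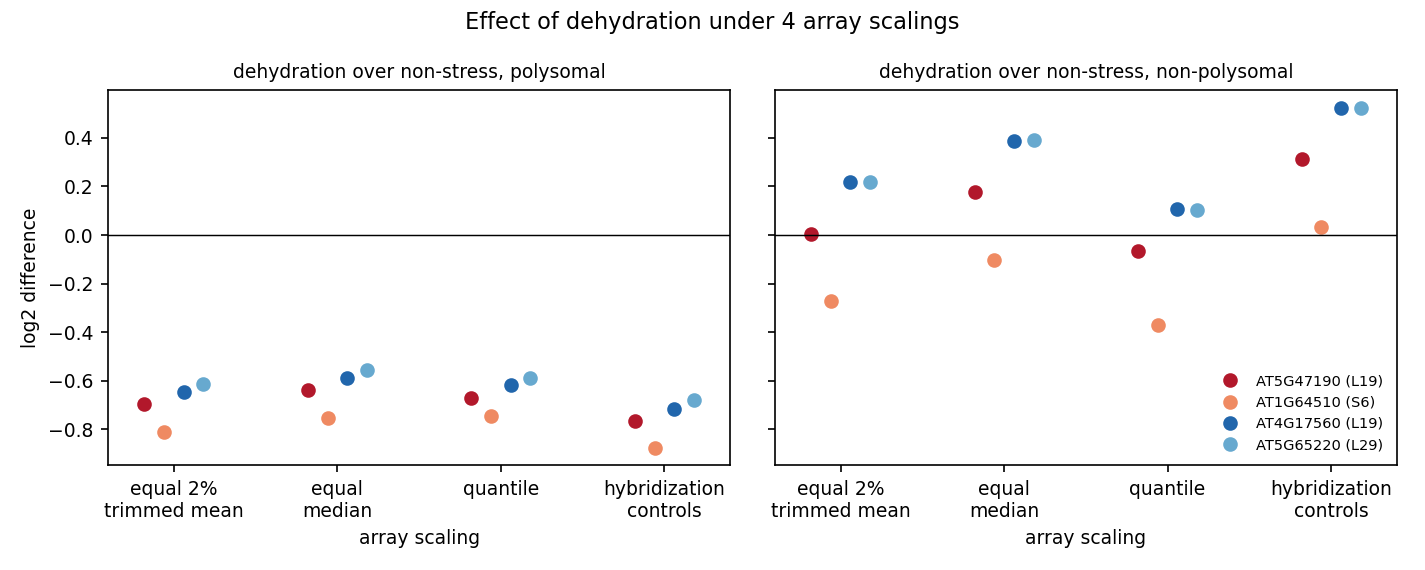
Log2 difference between dehydration and non-stress in polysomal RNA (left) and non-polysomal RNA (right) for the 4 genes under 4 ways of scaling the arrays. In polysomal RNA all points lie between -0.88 and -0.55, whereas in non-polysomal RNA AT1G64510 lies between -0.37 and 0.03 and AT5G65220 between 0.10 and 0.52.

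Of 40 nuclear loci listed for plastid ribosomal proteins, 9 were named by a probe set, and all 9 were measured. Beside the 4 genes these were AT2G43030 (L3, which in bacteria reaches towards the peptidyl transferase centre), AT4G01310 (L5, which in bacteria binds the smallest ribosomal RNA of the large subunit), AT3G54210 (L17), AT1G29070 (L34) and AT3G13120 (S10). This list was made with earlier results of these data known, and the 4 genes were picked from among such genes for their values. The other 31 loci were not analysed here.

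AT1G29070 stood lowest in polysomal RNA, with a signal of 2871 under dehydration against 7016 without stress, a log2 difference of -1.29, and in non-polysomal RNA it had 4369 against 5915, a difference of -0.44. It was the one gene of the 9 that was at least 2-fold lower in either fraction. Its polysome ratio was -0.61 under dehydration and 0.25 without stress, near those of AT5G65220, and its ratio without stress was -0.01 under quantile normalization. AT3G54210 had a ratio of -0.07 under dehydration and 0.72 without stress, the first turning to 0.19 under equal medians and 0.03 under hybridization control scaling, and a change of -0.79.

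AT4G01310 had ratios of 0.50 under dehydration and 1.03 without stress, AT2G43030 had 0.52 and 0.80, and AT3G13120 had 0.44 and 0.80. These genes lay between the pairs formed by the 4 genes in both conditions. Their changes were -0.53 for AT4G01310, -0.37 for AT3G13120 and -0.28 for AT2G43030, the last being the smallest of the 9. In polysomal RNA their dehydration effects were -0.76, -0.75 and -0.53 in that order, so the effect in AT4G01310 and AT3G13120 was within the range of the 4 genes.

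The 5 genes other than the 4 had a median change of ratio of -0.53 and all 5 were below 0, beside 48.9% of the measured probe sets and 66.9% of those as bright as the 4 genes. Their median effect of dehydration in polysomal RNA was -0.75, with all 5 below 0, beside 50.3% and 57.2%, and 1 at least 2-fold lower, beside 5.58% of the measured probe sets. Over all 9 genes, which include those chosen on these values, both medians were -0.70. The list of the 9 was made with earlier results of these data known. The change of ratio and the effect in polysomal RNA share arrays, so their counts are not separate evidence. The 7 genes of the large subunit had a median change of -0.79 and the 2 of the small subunit -0.54 and -0.37. The large subunit genes ran from -0.86 to -0.28, a range that contains both small subunit values. Each subunit includes genes chosen on this change, so no difference between the subunits is read from it. In non-polysomal RNA 4 of the 9 genes were above 0, near the share of 48.5% among the measured probe sets (57.0% among the bright ones), and the median of the 9 was -0.23, which turned to 0.07 under hybridization control scaling.

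The plastid-encoded partners in the ribosome were compared as the genes most like these in product. Their transcripts are translated on plastid ribosomes and those of the 4 genes on cytosolic ones. The polysome ratios set side by side here therefore concern different ribosomes. The 15 measured plastid rps and rpl genes had a median change of ratio of -0.02, with 8 below 0, beside 48.9% of the measured probe sets, and 7 above, and spanned -1.90 to 1.34. At their low end stood rpl16 (-1.90) and rpl36 (-1.55), for proteins of the large subunit, and at the high end rps14 (1.34), for the small subunit, and rpl20 (0.99), for the large one. In polysomal RNA 10 of 15 had a lower signal under dehydration, beside 50.3% of the measured probe sets and 57.2% of the bright ones, with a median of -0.36. Not all of the 15 lie in the brightness range of those bright probe sets. The range of the 4 nuclear genes, -0.86 to -0.54, lay inside that of the plastid genes, which was much wider. The median of the plastid genes pooled unlike genes. Without stress 6 of the 15 were at least 2-fold higher in polysomal RNA, beside 8.56% of the measured probe sets and 18.9% of the bright ones. Over the measured probe sets the share was 18.4% under equal medians and 21.9% under hybridization control scaling. These 6, rpl36, rpl14, rpl16, rps3, rpl22 and rps19, had changes of -1.90 to -0.13. Their locus numbers run from ArthCp057 to ArthCp063, so these genes lie close together and are not 6 independent cases. The other plastid genes had changes of -0.08 to 1.34. This grouping was made after the values were seen, and ratio and change share arrays.

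Factors that act on plastid ribosomes were a mixed group in the change of ratio. Of 11 loci listed as plastid translation factors 5 were named by a probe set, and all 5 were measured. Their median change of ratio was -0.20, with 3 below 0, near the share of 48.9% among the measured probe sets, and 2 above. AT3G08740, for elongation factor P, had 2557 in dehydration polysomal and 4788 in dehydration non-polysomal RNA, against 4954 in non-stress polysomal and 4580 in non-stress non-polysomal RNA. Its change was -1.02 and it was low in the same array as AT5G65220. AT2G24060, for initiation factor IF3, had a lower signal under dehydration in both fractions, -0.996 in polysomal and -0.79 in non-polysomal RNA, and a change of -0.20. AT4G11175, for initiation factor IF1, had -0.99 and -0.66 in these fractions and a change of -0.33. In polysomal RNA 4 of the 5 factors had a lower signal under dehydration, beside 50.3% of the measured probe sets and 57.2% of the bright ones. Not all of the 5 lie in the brightness range of those bright probe sets. The median of the 5 factors there was -0.95, beside -0.67 for the 4 genes.

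FUG1, the gene of initiation factor IF2, and AT5G24490, for the ribosome-associated factor PSRP1, had changes above 0, 0.14 and 0.07. AT5G24490, whose bacterial relatives bind ribosomes at rest, had 2518 in dehydration polysomal RNA against 2515 in non-stress polysomal RNA. Of 5 loci listed for plastid ribosome assembly only AT5G46420, for the assembly factor RimM, was named by a probe set. It was measured, and its change was -0.33. Of 19 loci listed for plastid transcription and 3 for regulators of nuclear plastid genes, 0 were named by a probe set.

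Nuclear genes of the photosystems, whose products are also imported into plastids, had a median change of ratio of 0.06 over 8 measured genes. The change was above 0 in 5 of them and below 0 in 3. Among the measured probe sets 51.1% were above 0, and among the bright ones 33.1%. The change was highest in PSBY (0.42), of photosystem II, and PSAN (0.28), of photosystem I. It was lowest in LHCB4.3 (-0.42) and LHCB4.1 (-0.09), for light-harvesting proteins. In polysomal RNA LHCB4.3 was -1.40 under dehydration over non-stress, and the other photosystem genes lay between -0.23 and 0.12.

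Likeness to the 4 genes was measured as the Euclidean distance between log2 signals of the 4 arrays, after each gene was centred on its own mean. With 4 points a small distance is easily met, and it says nothing of shared function. The nuclear loci nearest to the mean of the 4 genes were AT4G39170 (0.08), AT5G20180 (0.10), PMM (0.11), a phosphomannomutase gene, CRR41 (0.13), a gene for a factor of the plastid NDH complex, and AT1G33170 (0.15), out of 5885 candidates.

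Among themselves the genes were near in the pairs formed above on their polysome ratios. The distances are computed from the same array signals as those ratios, so they are no separate evidence for the pairs. AT1G64510 was the 11th nearest of 5977 named loci to AT5G47190, at a distance of 0.23, while AT4G17560, its L19 copy, stood at place 1909 with a distance of 1.39. AT5G65220 was at place 124 from AT4G17560, at a distance of 0.30, close to AT3G54210 at 0.31. The loci nearest to AT5G47190 were AT3G61820 (0.08), AT4G02530 (0.10) and the plastid gene rpl14 (0.13), for another protein of the large subunit, with ratios of 0.89 under dehydration and 1.74 without stress.

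Nearest to AT1G64510 were TRXF2 (0.10), a plastid thioredoxin gene, AT4G39840 (0.17) and AT4G02530 (0.18), so that AT4G02530 was among the nearest loci of both genes of this pair. Nearest to AT4G17560 were AT4G21310 (0.08), AT5G24460 (0.10) and AT1G31690 (0.11), and nearest to AT5G65220 were AT4G09580 (0.05), AT1G34300 (0.05) and AT2G41840 (0.06). None of these 6 loci is in the lists for plastid ribosomal proteins or translation factors.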

How the data were processed

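The deposited values are signal intensities on a linear scale for 22810 probe sets, and the 2% trimmed mean was 500.0 on every array, so the authors had scaled them. The sources used here do not name the summary software. Chip type and hybridization batch come from the experiment records, per the file headers.

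Arrays were scaled to equal 2% trimmed means. Signals below 69.9, the median over arrays of percentile 25, were set to that value before taking log2, and the 64 control probe sets were dropped. Probe sets with a mean log2 signal of at least 7.74, the median, count as measured, which left 11373. The platform annotation gave 13513 probe sets 1 gene symbol, 503 several and 8730 none, and 13436 of the first had an entry in the TAIR10.1 gene table. Only probe sets with 1 symbol named a locus, so a locus not named here may still have a probe set on the array. A locus was given by its brightest measured probe set. With 1 array in each group, no test was run. The calculations were tested on simulated arrays, in Python 3.11.15 with numpy 2.4.6 and pandas 2.3.3.

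The 4 genes and all lists were chosen with earlier results of these data known. A list of cytosolic ribosomal proteins had been planned and was not used here, and of the lists for green tissue, root and seed only RCA, EXPA7 and AT4G11290 were named by a probe set. Genes are named by these rules: every listed gene of a plastid ribosomal protein, the 2 members farthest above and below the median of each other list in the change of ratio, and the 5 or 3 nearest loci. Members of the lists outside these rules were named after their values were seen. Alternatives were other scalings, lower limits, filters and probe set rules.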

Additional observations from a re-analysis of the deposited data

Results flagged for a closer look

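The polysome ratio of AT4G17560 and AT5G65220 had opposite signs in the conditions, as had those of AT1G29070 (-0.61 and 0.25) and AT3G54210 (-0.07 and 0.72) and of 12.2% of the probe sets as bright as the 4 genes. The sign of AT1G29070 without stress turned under quantile normalization (-0.01), and that of AT3G54210 under dehydration turned under equal medians (0.19) and hybridization control scaling (0.03). It was -0.42 under dehydration and 0.44 without stress for AT4G17560, a difference of -0.86, and -0.70 and 0.13 for AT5G65220, a difference of -0.83, whose ratio without stress was -0.13 under quantile normalization.

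Between dehydration and non-stress, the signals of AT4G17560, AT5G65220 and AT5G47190 differed in opposite directions in the fractions, being lower in polysomal and higher in non-polysomal RNA. The effect in polysomal minus that in non-polysomal RNA is the same number as the change of ratio, -0.86, -0.83 and -0.70. For AT5G47190 the non-polysomal effect was 0.01 and turned to -0.06 under quantile normalization. None of these differences was tested, because each group has 1 array.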

How the results depend on the processing

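Over the medians of the 4 genes and of the 9 measured genes and the single values of the 9 genes, 545 values were recomputed under 10 alternatives, of which the restriction to probe sets as bright as the 4 genes was chosen after seeing the data. Of the 380 values under alternatives other than the scaling of the arrays, 375 were identical by construction, since the genes are bright and have 1 probe set each. The other 5 were medians of the 9 genes under the restriction to bright probe sets, which leaves out AT2G43030. The 3 other scalings could move the 165 values computed under them. All moved by less than the SD between probe sets of the same locus, which is not a measure of shifts between scalings. Among the 165 values, 9 had another sign. Of these 9, the 2 values of AT2G43030 (0.05) and AT4G01310 (0.07) for the effect of dehydration in non-polysomal RNA under hybridization control scaling are added here, the others standing beside their results. In the change of ratio, probe sets at least 2-fold lower numbered 184, or 293 under equal medians, 869 under hybridization control scaling, 358 without a filter and 79 when filtered at percentile 75. The higher ones numbered 318, or 205, 103, 861 and 102 in that order. Without stress 973 probe sets were at least 2-fold higher in polysomal RNA, or 2087 under equal medians and 2489 under hybridization control scaling, and under dehydration 1030, or 1778 under equal medians. In non-polysomal RNA 491 were at least 2-fold higher under dehydration, or 773 under equal medians and 1094 under hybridization control scaling, and 519 at least 2-fold lower, or 347 and 244. The cause of these shifts was not tested. No paired analysis was possible because the labels give 1 array for each group and no replicate numbers.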

Other observations

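The genes next to these on the chromosome were looked up in the gene table. Of 8 neighbours 3 were named by a probe set, and all 3 were measured. AT1G64500, beside the S6 gene AT1G64510, had a polysome ratio of 1.43 under dehydration and 1.38 without stress, so its ratio without stress was near that of AT1G64510, 1.59, but its change was 0.05, against -0.54 for AT1G64510. On the other side RPN12a, a proteasome subunit gene, had ratios of 0.67 and 0.52. AT5G47180, beside AT5G47190, had ratios of -0.95 and -0.56 and a signal that was higher under dehydration in both fractions, by 0.98 in polysomal and 1.37 in non-polysomal RNA on the log2 scale.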
